A study of Mus musculus with 82 samples.

Results

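WNT ligands and secreted WNT antagonists, 10 genes in all, were followed across the incubations of cultured mouse aortic vascular smooth muscle cells (aVSMC): the ligands Wnt2, Wnt5a and Wnt9a, the secreted antagonists Sfrp1, Sfrp2, Sfrp4, Dkk2, Dkk3 and Wif1, and the feedback gene Axin2. They were chosen by name, with earlier results of these data known. These 10 genes were read out of the 55401 genes listed in each of 3 tables of read counts. The study asked how epidermal growth factor (EGF) acts together with either of 2 vasoactive substances, angiotensin II (AngII) and the thromboxane A2 analogue U46619, on the transcriptome of these cells. Primary cultures from aortae of C57BL/6 mice, used up to passage 7 and grown before in a medium that holds EGF among its supplements, were kept for 24 h without serum and supplements, which the controls share, and then incubated with 10 µg/L EGF, 10 nM AngII, 1 µM U46619 or combinations of them for 24 h or 48 h. At 24 h, the cells of 6 mice each received 7 incubations, namely none (control), each agent alone, EGF with AngII, EGF with U46619, and all agents at once, giving 42 libraries. At 48 h there were 40 libraries in 10 culture sets, of which 5 held control, EGF, U46619 and EGF+U46619 (called here the EGF/U46619 batch) and 5 held control, EGF, AngII and EGF+AngII (the EGF/AngII batch), so the 10 control and 10 EGF libraries came from both batches, and the triple combination was measured at 24 h only. The labels give 5 mouse numbers for the 10 culture sets of 48 h, while the study's methods speak of a different mouse for each replicate. Primary isolates of this kind can hold other cell types of the aortic wall, so their markers are given with the results.

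WNT proteins are secreted, lipid-modified ligands that bind Frizzled receptors and their co-receptors, and canonical signalling stabilises β-catenin, which then works with TCF/LEF factors at target genes. Secreted Frizzled-related proteins (Sfrp) and Wif1 bind WNT ligands outside the cell, whereas Dickkopf proteins such as Dkk2 act on the LRP co-receptors. In the vessel wall, WNT signalling is known for its part in smooth muscle proliferation, migration and matrix production.

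By the GENCODE annotation of GRCm38, the 10 genes are protein coding and lie on 8 chromosomes. Sfrp2 spans chr3:83766321-83774316 on the plus strand with 5 exon blocks, and Dkk2 lies on the same chromosome at chr3:132085292-132180304. Wnt9a (chr11:59306928-59333552) and Axin2 (chr11:108920349-108950783) share chromosome 11. Wnt5a is at chr14:28504750-28527448, Sfrp1 at chr8:23411502-23449632, Sfrp4 at chr13:19623104-19632994 and Wif1 at chr10:121033960-121100650, all on the plus strand, and Wnt2 (chr6:17988940-18030585) and Dkk3 (chr7:112116017-112159057) are on the minus strand.

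Promoters are shown for 4 genes that represent the roles described: Sfrp2 as an antagonist with a wide range of levels, Dkk2 as a Dickkopf, Axin2 as the feedback target and Wnt9a as the ligand that differed after EGF+AngII. Each is the 250 bases before the RefSeq start site in GRCm38.p6, 5′ to 3′ on the plus strand, and capitals mark matches on either strand. The GC box was searched as GGGCGG. The TATA element was searched as TATAAA. A TCF/LEF-type element was searched as CTTTGAT, and no mismatch was allowed.
Sfrp2, chr3:83766071-83766320: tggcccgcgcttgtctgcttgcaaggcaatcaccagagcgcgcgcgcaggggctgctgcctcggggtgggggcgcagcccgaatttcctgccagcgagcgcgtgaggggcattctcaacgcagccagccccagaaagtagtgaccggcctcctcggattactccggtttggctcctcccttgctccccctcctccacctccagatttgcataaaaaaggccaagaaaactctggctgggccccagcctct
Dkk2, chr3:132085042-132085291: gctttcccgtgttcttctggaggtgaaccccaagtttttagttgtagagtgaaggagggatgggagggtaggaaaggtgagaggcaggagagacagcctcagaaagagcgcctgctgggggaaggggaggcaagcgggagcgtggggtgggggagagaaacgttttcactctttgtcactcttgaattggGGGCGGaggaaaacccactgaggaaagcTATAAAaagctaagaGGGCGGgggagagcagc
Axin2, chr11:108920099-108920348: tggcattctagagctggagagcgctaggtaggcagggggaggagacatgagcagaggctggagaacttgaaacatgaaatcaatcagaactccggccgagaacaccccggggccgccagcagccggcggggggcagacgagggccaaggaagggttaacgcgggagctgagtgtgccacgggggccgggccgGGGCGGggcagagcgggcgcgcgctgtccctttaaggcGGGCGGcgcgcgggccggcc
Wnt9a, chr11:59306680-59306929: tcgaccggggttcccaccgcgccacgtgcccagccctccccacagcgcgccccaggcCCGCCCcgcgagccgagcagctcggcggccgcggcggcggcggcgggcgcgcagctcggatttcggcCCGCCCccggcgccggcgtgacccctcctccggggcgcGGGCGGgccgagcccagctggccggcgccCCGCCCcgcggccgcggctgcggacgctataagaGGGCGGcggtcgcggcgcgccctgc
The Sfrp2 window held no match to any of the 3 motifs, the Dkk2 window held 2 GC boxes and 1 TATA element, the Axin2 window 2 GC boxes and the Wnt9a window 5 GC boxes. A promoter was found for 6 of the 10 genes, the other two being those of Wnt2 and Wif1. None of the 6 held CTTTGAT, which occurs in 3.21% of all 32851 promoters of the table. GGGCGG was in 5 of the 6 against 32.7% of all promoters, and TATAAA in 2 of the 6 against 12.4%. GC content was 84.4% in the Wnt9a window, 69.2% in Axin2, 63.6% in Sfrp2 and 55.6% in Dkk2, with a median of 52.4% over all promoters. These matches describe letters in a window and are not measured binding sites.

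Libraries held 16.5 to 20.8 M counted reads at 24 h (median 19.7) and 19.9 to 33.9 M at 48 h (median 25.9). At 24 h, each of the 42 libraries resembled a library of its own mouse most closely, and at 48 h this held for 37 of 40 libraries and their culture sets. The 3 exceptions all involved the library labelled control of replicate 4 in the EGF/AngII batch, which went against its set: its best correlation within the set was −0.163, and its closest library was the EGF library of replicate 2 at 0.95. Its Sfrp2 level was 2589 FPM against 24.0 to 38.8 FPM in the other 3 libraries of that set, and its Dkk3 level was 27.3 FPM against 397 to 465.5 FPM. Results at 48 h are therefore given with and without it, and it is called the doubtful control library. The control of replicate 2 in that batch was closest to its own set but stood apart from it, with a best correlation of 0.781, while the other 3 libraries of that set correlated at 0.924 to 0.939 with their closest library within it. Its Sfrp4 level was 99.3 FPM against 34.4 to 41.3 FPM in those 3, and its Dkk3 level 58.6 FPM against 25.1 to 25.5 FPM. Without it, no count of called members at 48 h changed, nor without both controls. Smooth muscle identity was checked on its defining genes: Acta2, smooth muscle actin, was at 2600 ± 1404 FPM (SD, n = 6) and Myh11, smooth muscle myosin, at 43.4 ± 35.5 FPM in the 24 h controls, where Myh11 ranged from 2.68 to 90.9 FPM. Tagln and Cnn1 lie on chromosome 9, all of whose genes are listed at 0 in the tables, as are those of chromosomes X and Y, the mitochondrial genes and the 657 genes of chromosome 8 that start beyond 97.876 Mb. The 10 genes are not in these regions, but Ctnnb1, which encodes β-catenin, the co-receptor gene Ryk, and Porcn, whose product lipidates WNT ligands, are, and are not described.

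Levels are given as FPM, counts divided by the scaled library size in M reads. Between genes, levels were compared per kilobase of exon. In the 24 h controls, Sfrp1 had the highest mean level at 177.2 FPM per kb, followed by Sfrp2 at 88.8 and Dkk3 at 40.1 FPM per kb. Wnt9a followed at 8.21, Wnt5a at 3.07 and Dkk2 at 1.21 FPM per kb, and Axin2 (0.530), Sfrp4 (0.463), Wnt2 (0.393) and Wif1 (0.0387) came last. The ranges of neighbours in this order overlapped widely, since Sfrp2 ran from 0.905 to 377 FPM per kb over the 6 control cultures and Sfrp1 from 52.2 to 509 FPM per kb. In the 48 h controls, the means were 324 FPM per kb for Sfrp2 (median 120), 211 for Sfrp1, 35.7 for Dkk3 and 10.5 for Sfrp4, and the other members stayed at or below 3.86 FPM per kb. Control levels at 24 h and 48 h came from different cultures and were scaled separately, so they are not compared.

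Differences were tested across all 14528 genes with edgeR and DESeq2, with the mouse in the model. A gene is called where both adjusted p-values (FDR) are under 0.05 and its mean is at least 5 FPM in a compared group. Of the 10 members 9 were tested, since Wif1 did not pass the count filter at 24 h. All fold changes below are on the log2 scale, with the standard error (SE).

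At 24 h, U46619 lowered 3 of the 9 tested members, the antagonists Sfrp1, Sfrp2 and Dkk3, and raised none. Over all genes tested, 27.8% were called in this comparison. The median log2-fold change was −1.15 over the 9 members and −0.06 over all genes. Since the members were chosen with earlier results known, such medians here and below are descriptive. Without the minimum of 5 FPM, Sfrp4 and Axin2 passed both tests as well, which makes 5 members against 33.5% of all genes. The ligands did not pass: Wnt2, Wnt5a and Wnt9a had log2-fold changes of −0.07 ± 0.58, 0.09 ± 0.24 and −0.22 ± 0.20 (SE, n = 6). In bulk cultures, fewer cells of a type that expresses a gene and less RNA per cell cannot be told apart.

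**Figure D1:**
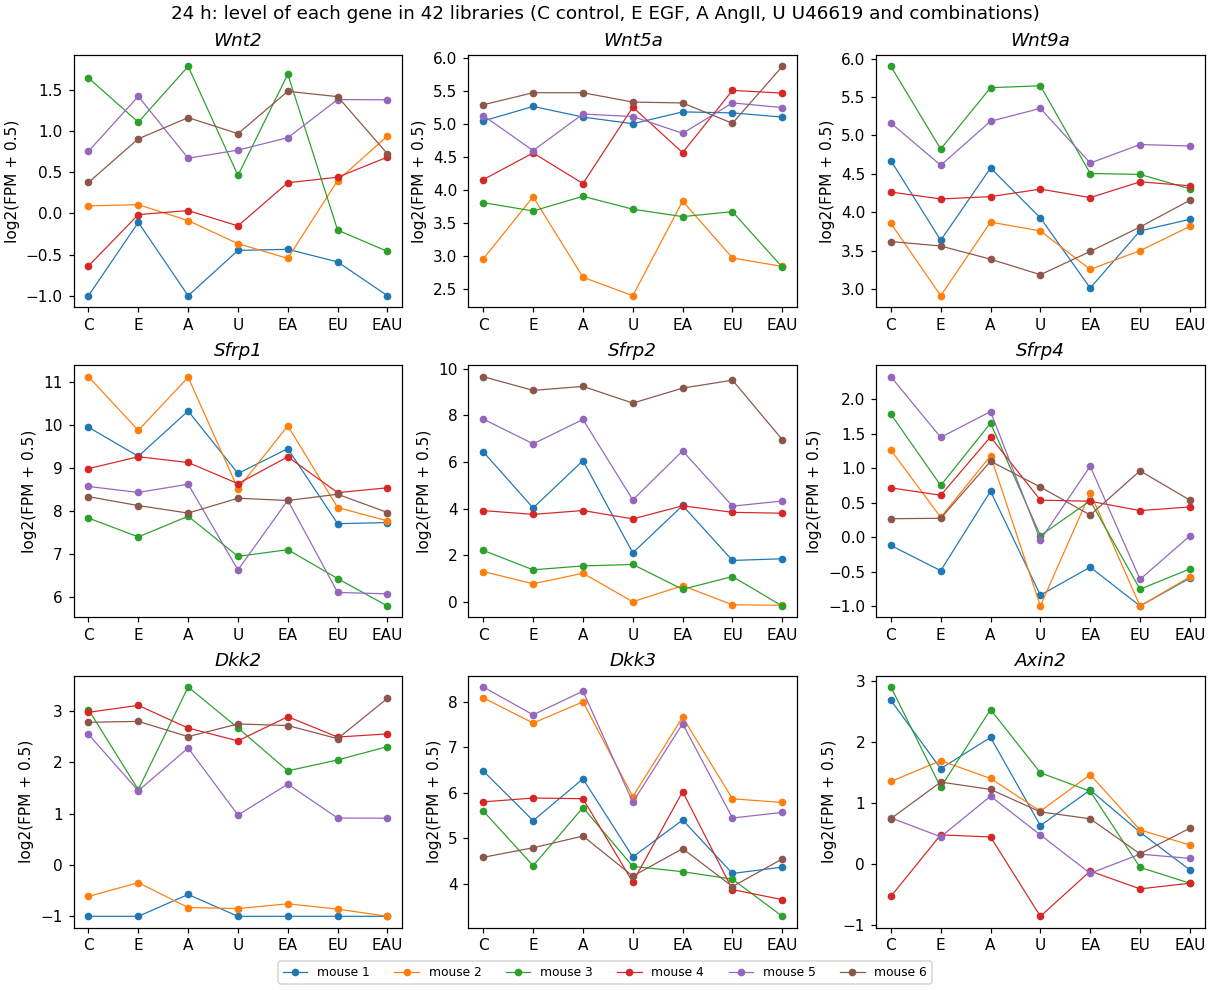
Level of each WNT member in every culture at 24 h, in FPM, by incubation, with 1 point per mouse (n = 6 per incubation). The U46619 incubations lie lower for Sfrp1, Sfrp2 and Dkk3, with control medians of 443, 50.2 and 71.9 FPM and U46619 medians of 340, 7.51 and 21.9 FPM, and the points of all groups overlap.

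Sfrp1 binds WNT ligands through its Frizzled-like domain. It ranged in the 24 h controls from 228 FPM in mouse 3 to 2227 FPM in mouse 2, with a median of 443 FPM. After U46619 it ranged from 98.7 to 468 FPM with a median of 340 FPM. The groups overlapped, but within each of the 6 mice the U46619 culture was lower than its own control, by 0.04 (mouse 6) to 2.60 (mouse 2) on the log2 scale. The fitted log2-fold change was −1.19 ± 0.32, that is 2.29-fold lower (edgeR FDR 0.00444, DESeq2 FDR 0.000761).

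Sfrp2, a related antagonist, varied widely between mice. Its 24 h control levels were 85.9 FPM in mouse 1, 1.95 in mouse 2, 4.09 in mouse 3, 14.5 in mouse 4, 229 in mouse 5 and 812 FPM in mouse 6. After U46619 the same mice had 3.77, 0.495, 2.52, 11.2, 20.2 and 369 FPM. The order of mice stayed similar, and each U46619 culture was lower than its own control although the groups overlapped. The log2-fold change was −2.14 ± 0.52 (edgeR FDR 0.00194, DESeq2 FDR 0.000352), and it was called in each of the 6 fits that left out 1 mouse. Without mouse 1, where the paired difference was widest, it came to −1.52 ± 0.48.

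Dkk3 belongs to the Dickkopf family by sequence, although its part in WNT signalling is less settled than that of Dkk2. Its 24 h controls ran from 23.4 FPM (mouse 6) over a median of 71.9 to 321 FPM (mouse 5), and the U46619 cultures ran from 15.8 over 21.9 to 59.8 FPM. Mice 2 and 5 were highest in both groups, and the highest U46619 culture exceeded the 3 lowest controls. It was lower in 6 of 6 mice, with a log2-fold change of −1.72 ± 0.26, that is 3.29-fold lower (edgeR FDR 2.2e-05, DESeq2 FDR 2.54e-09). This was the smallest FDR among the members in that comparison. Dkk2, an antagonist that binds LRP co-receptors, was at 0 to 7.66 FPM in controls (median 5.86) and at 0 to 6.22 FPM after U46619 (median 3.16), with a log2-fold change of −0.74 ± 0.37 that was not called.

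The remaining 2 antagonists were low at 24 h. Sfrp4 was at 0.419 to 4.52 FPM in controls (median 1.52) and at 0 to 1.15 FPM after U46619 (median 0.493). Its log2-fold change of −1.999 ± 0.57 passed both tests (edgeR FDR 0.00739) and was negative in 5 of 6 mice, but no group reached 5 FPM, and it missed the tests without mouse 5 (−1.66). Wif1 was counted in 2 of the 6 controls, with a maximum of 0.515 FPM, and in 2 of the 6 U46619 cultures, with a maximum of 0.652 FPM, both in mouse 6. It was too low to be tested at that time.

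Axin2, a scaffold of the β-catenin destruction complex and a common readout of canonical signalling, was low too, at 0.190 to 6.98 FPM in controls (median 1.62). After U46619 it was at 0.04997 to 2.32 FPM (median 1.17). Mice 1 and 3 held the 2 highest controls, at 5.93 and 6.98 FPM, and 5 of 6 mice were lower after U46619. The log2-fold change was −1.15 ± 0.40 (edgeR FDR 0.0244, DESeq2 FDR 0.0116), below the minimum level, and it missed the tests without mouse 1, 2 or 3 (−0.80 without mouse 1).

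EGF added to U46619 gave the same 3 calls against control. EGF+U46619 lowered Sfrp1, Sfrp2 and Dkk3, 3 of 9 members, while 33.4% of all genes were called. The median log2-fold change was −1.59 over the members and −0.05 over all genes. Sfrp1 ranged from 68.6 to 344 FPM (median 239) with a log2-fold change of −1.59 ± 0.33 (edgeR FDR 0.000261). It was lower in 5 of 6 mice, the exception being mouse 6 with 335 against 322 FPM. Sfrp2 ranged from 0.409 to 732 FPM (median 8.34) with −1.91 ± 0.51 (edgeR FDR 0.00307), and Dkk3 from 14.1 to 57.8 FPM (median 17.4) with −1.97 ± 0.26 (edgeR FDR 1.67e-06). Both were lower in 6 of 6 mice. The Sfrp2 value moved to −1.26 ± 0.47 without mouse 1 and to −2.53 ± 0.58 without mouse 6, and was called in both.

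Below the level minimum, 3 more members passed both tests in EGF+U46619, which makes 6 against 40.1% of all genes: Sfrp4 (−2.38 ± 0.60), Dkk2 (−1.01 ± 0.37) and Axin2 (−1.85 ± 0.42). Axin2 was at 0.251 to 0.971 FPM (median 0.618) against 0.190 to 6.98 FPM in controls, so the upper part of the control range was empty after EGF+U46619. Dkk2 missed the tests without mouse 5 (−0.70), and the Sfrp4 value was −3.45 without mouse 6. Wnt9a had −0.47 ± 0.21 with an edgeR FDR of 0.0666 and a DESeq2 FDR of 0.0482, and was not called, and Wnt5a and Wnt2 had 0.23 ± 0.24 and 0.53 ± 0.55.

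With AngII added, EGF+AngII+U46619 again lowered Sfrp1, Sfrp2 and Dkk3, 3 of 9 members where 34.6% of all genes were called. All 3 were lower in 6 of 6 mice. Sfrp1 was at 55.0 to 372 FPM (median 215) with a log2-fold change of −1.82 ± 0.33, and Dkk3 at 9.19 to 54.7 FPM (median 21.4) with −1.96 ± 0.26. Sfrp2 was at 0.377 to 124 FPM (median 8.25) with −2.81 ± 0.53, or 7.03-fold lower. The Sfrp2 value was −2.23 without mouse 1 and −3.60 without mouse 4. Sfrp4 (−2.04 ± 0.58) and Axin2 (−1.93 ± 0.43) passed both tests below 5 FPM, which makes 5 members against 42.2% of all genes. The 3 comparisons with U46619 share their control libraries.

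The contribution of EGF beside U46619 was tested directly. Against U46619 alone, EGF+U46619 had 0 members called by edgeR and 0 by DESeq2. An unadjusted p under 0.05 in both was reached by 0 members, and 0% of all genes were called. Sfrp1 had −0.39 ± 0.31, Dkk3 −0.25 ± 0.25 and Axin2 −0.70 ± 0.43 there. Dkk3 was lower in 6 of 6 mice, and Sfrp1 and Axin2 each in 5 of 6. For the departure from additivity of both agents, edgeR called 0 and DESeq2 called 0 members, 0 had an unadjusted p under 0.05 in both, and 0% of all genes were called. Sfrp2 had the widest departure, 1.42 ± 0.69 (unadjusted p = 0.0482 and FDR 1.00 in edgeR). Against EGF alone, EGF+U46619 lowered Sfrp1 (−1.12 ± 0.32, edgeR FDR 0.0148) and Dkk3 (−1.41 ± 0.26, edgeR FDR 0.000509), 2 of 9 members where 13.3% of all genes were called. Axin2 passed both tests below 5 FPM (−1.49 ± 0.42), lower in 6 of 6 mice, which makes 3 members against 15.9%, and missed the tests without mouse 2 (−1.49). The Sfrp1 call was lost without mouse 1, 2 or 5 (−1.05, −0.99 and −0.88).

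EGF alone and AngII alone called none of the members at 24 h. For EGF, edgeR called 0 members and DESeq2 alone 1 (Wnt9a), and 0.0275% of all genes were called by both. Wnt9a, Sfrp2 and Dkk3 (3 members) were under 0.05 by both unadjusted p-values. Over all 14528 genes, 2536 were under 0.05 by both unadjusted p-values, and 425 had a DESeq2 FDR under 0.05. The median log2-fold change after EGF was −0.52 over the members and −0.03 over all genes. Sfrp2 had −1.20 ± 0.48 (edgeR FDR 0.176) and was lower in 6 of 6 mice, and Dkk3 had −0.55 ± 0.25. For AngII, edgeR called 0, DESeq2 0, an unadjusted p under 0.05 was reached by 0 members, and 0% of all genes were called. The 9 log2-fold changes after AngII lay between −0.27 (Sfrp2) and 0.35 (Wnt2).

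Wnt9a, a ligand, was the single member called after EGF+AngII, where 3.13% of all genes were called. Its control levels were 25.0, 14.0, 59.1, 18.7, 35.3 and 11.8 FPM in mice 1 to 6, and its EGF+AngII levels 7.60, 9.08, 22.2, 17.8, 24.5 and 10.7 FPM. Each mouse was lower than its own control, least so in mice 4 and 6, and the groups overlapped. The log2-fold change was −0.76 ± 0.21, or 1.69-fold lower (edgeR FDR 0.0441, DESeq2 FDR 0.0113). EGF alone had −0.67 ± 0.21 for Wnt9a (edgeR FDR 0.106, DESeq2 FDR 0.0408), also lower in 6 of 6 mice. The EGF+AngII call was lost without mouse 1, 2, 3 or 5 (−0.58, −0.79, −0.61 and −0.78). Wnt5a, a ligand known for non-canonical signalling, was at 7.28 to 38.8 FPM in the 24 h controls (median 25.0), and its log2-fold changes in all comparisons of both times lay between −0.26 and 0.23, none called.

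**Figure D2:**
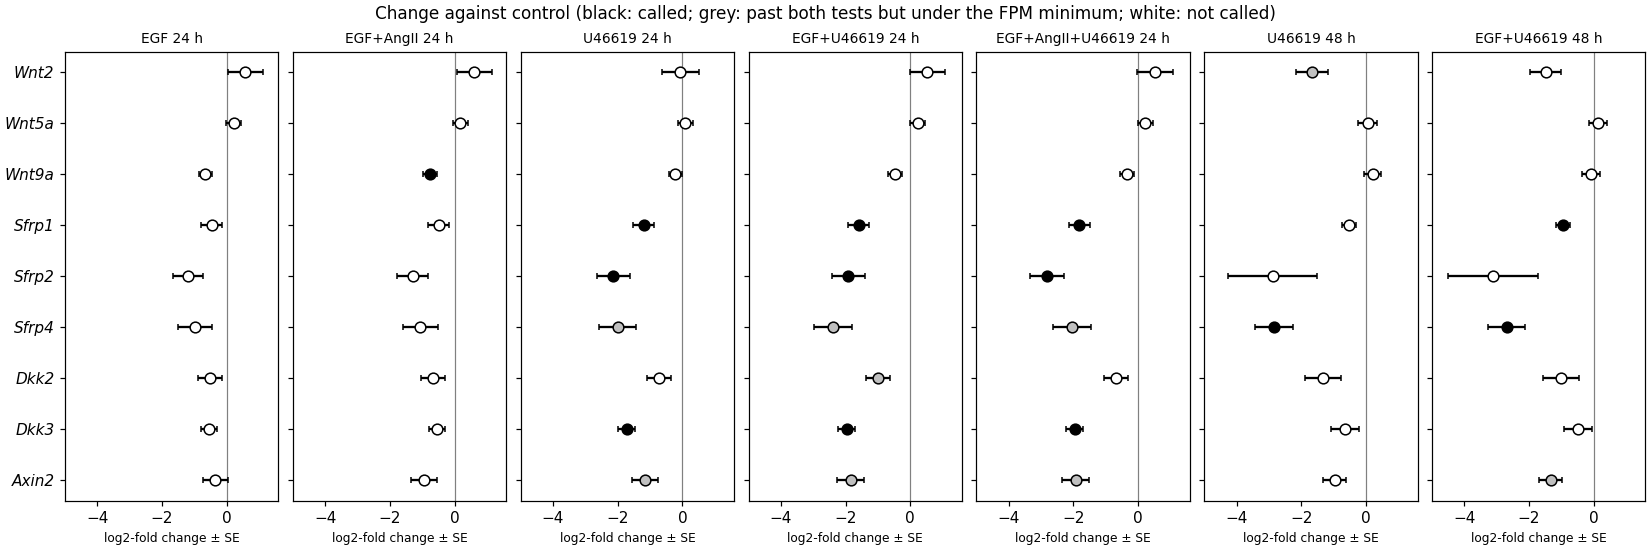
Fitted log2-fold change against control of the WNT members, with the standard error as bars. Shown are the 24 h incubations that held EGF or U46619 and the 48 h incubations that held U46619. Sfrp1, Sfrp2 and Dkk3 lie below 0 in the 24 h incubations with U46619 (−1.19, −2.14 and −1.72 for U46619 alone), and Wnt5a stays between 0.06 and 0.23.

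At 48 h, U46619 lowered 1 of 9 members, Sfrp4, where 4.03% of all genes were called. The median log2-fold change was −0.97 over the members and −0.02 over all genes. In the EGF/U46619 batch the Sfrp4 controls were 9.83, 201, 15.05, 9.56 and 19.8 FPM in replicates 1 to 5. The U46619 cultures of the same sets had 6.04, 13.2, 4.00, 2.21 and 8.16 FPM. Replicate 2 held the highest level of both groups, the ranges overlapped, and every set was lower after U46619. The log2-fold change was −2.85 ± 0.58 (edgeR FDR 0.00451, DESeq2 FDR 4.4e-06), and −2.93 without the doubtful control library. It was −2.31 without the control of replicate 2 of the EGF/AngII batch and −2.36 without both. Within the EGF/U46619 batch alone it was smaller, −2.01 ± 0.46, and still called.

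EGF+U46619 lowered Sfrp4 and Sfrp1 at 48 h, 2 of 9 members where 6.85% of all genes were called. Sfrp4 was at 6.65, 8.15, 5.10, 3.30 and 8.93 FPM in replicates 1 to 5, all below the lowest control of the batch (9.56 FPM). Over both batches the lowest of the 10 controls was 4.55 FPM, so the groups overlapped, with only replicate 4 below that value. Its log2-fold change was −2.70 ± 0.58 (edgeR FDR 0.00375), −2.79 without the doubtful control library, −2.14 without the control of replicate 2 of the EGF/AngII batch, −2.19 without both, and −1.83 ± 0.46 within the batch. Sfrp1 controls of the batch were 503, 1663, 976, 729 and 1387 FPM, and the EGF+U46619 cultures 440, 512, 673, 333 and 903 FPM. Every set was lower and the groups overlapped. Sfrp1 had −0.95 ± 0.22 (edgeR FDR 0.00555), −1.03 without that library, −1.06 without both and −0.82 within the batch, called each time. U46619 alone left Sfrp1 at 428, 861, 921, 393 and 1497 FPM, lower in 4 of 5 sets, with −0.51 ± 0.21 (edgeR FDR 0.151), not called.

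**Figure D3:**
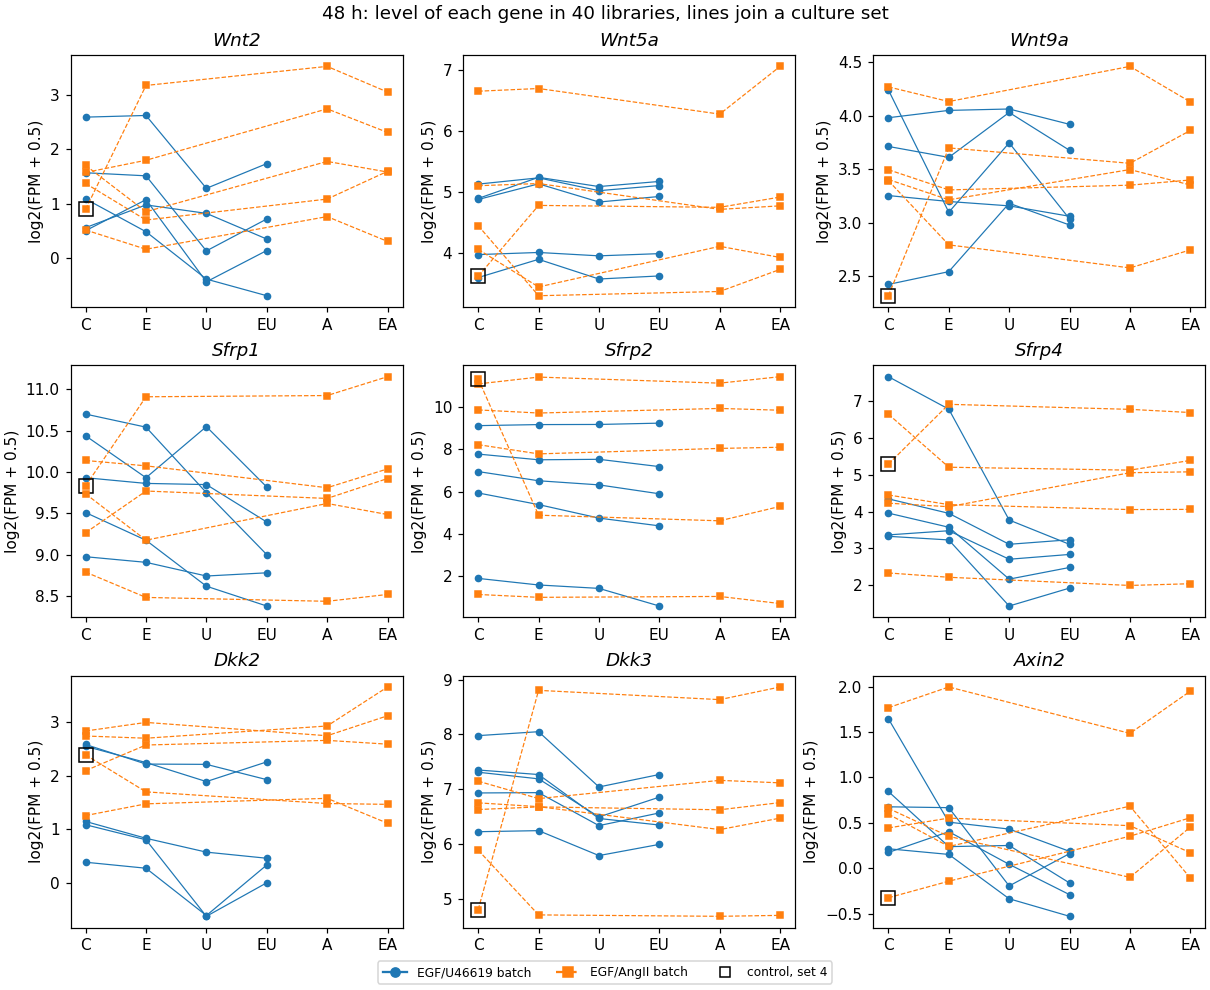
Level of each WNT member in every culture at 48 h, in FPM, by incubation, with the batches marked (10 control and 10 EGF cultures, 5 of each other incubation). Sfrp4 lies at 3.30 to 8.93 FPM after EGF+U46619 against 9.56 to 201 FPM in the controls of the same batch, and Sfrp2 spreads from 1.69 to 2589 FPM over the 10 controls.

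Dkk3 and Sfrp2, both called at 24 h, were not called at 48 h in the fit over both batches. Dkk3 controls of the EGF/U46619 batch were 74.1, 162.4, 251, 121 and 157.9 FPM, against 54.7, 87.7, 131, 80.1 and 89.5 FPM after U46619 and 63.1, 80.7, 153.4, 94.1 and 115 FPM after EGF+U46619. Every set was lower in both incubations. The log2-fold change over both batches was −0.65 ± 0.44 after U46619 and −0.47 ± 0.43 after EGF+U46619, and −0.80 and −0.62 without the doubtful control library. Within the EGF/U46619 batch, Dkk3 was called after both, with −0.74 ± 0.17 (edgeR FDR 0.0088) and −0.55 ± 0.17 (edgeR FDR 0.0314).

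Sfrp2 levels at 48 h followed the culture set. In the EGF/U46619 batch the controls were 557, 60.6, 123, 219 and 3.20 FPM, the U46619 cultures 579, 26.3, 79.2, 184.1 and 2.17 FPM, and the EGF+U46619 cultures 604, 20.3, 59.0, 145 and 0.996 FPM. Replicates 2 to 5 were lower in both incubations and replicate 1 was slightly higher. The log2-fold change of −2.89 ± 1.38 after U46619 (edgeR FDR 0.217, DESeq2 FDR 0.0450) moved to −1.13 ± 0.70 without the doubtful control library, and that of −3.12 ± 1.38 after EGF+U46619 to −1.39 ± 0.71, none called. Without both controls that stood apart, these values were −0.74 and −0.996. For EGF, AngII and EGF+AngII at 48 h the Sfrp2 value changed its sign without that library, from −1.90 to 0.18, from −1.47 to 0.69 and from −1.36 to 0.97.

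Among the low members at 48 h, Wnt2 passed both tests after U46619 (−1.67 ± 0.50, edgeR FDR 0.0456), which with Sfrp4 makes 2 members against 4.92% of all genes without the level minimum. This value missed the tests in 7 of the 10 fits that left out 1 culture set (−2.18 to −1.46 over the 10) and without the control of replicate 2 of the EGF/AngII batch (−1.60). Its batch controls were 0.971, 5.55, 1.62, 2.47 and 0.915 FPM and its U46619 cultures 1.27, 1.93, 0.262, 0.593 and 0.236 FPM, lower in 4 of 5 sets. Axin2 passed both tests after EGF+U46619 (−1.33 ± 0.35, edgeR FDR 0.0179), which makes 3 members against 8.13%. It missed the tests without replicate 1, 2 or 4 of the EGF/U46619 batch (−1.20, −1.26 and −1.34). Its controls were 0.660, 1.30, 1.10, 0.628 and 2.63 FPM, and its EGF+U46619 cultures 0.193, 0.394, 0.618, 0.318 and 0.638 FPM, lower in every set. After U46619 alone Axin2 had −0.97 ± 0.34 (edgeR FDR 0.0938), and −1.10 with both tests passed without the doubtful control library, but not without both controls that stood apart (−1.07, edgeR FDR 0.0527). Dkk2 (−1.33 ± 0.56 after U46619) was not called, and Wif1 stayed at or below 1.33 FPM in every 48 h library.

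Against EGF alone at 48 h, EGF+U46619 lowered Sfrp1 (−0.90 ± 0.21, edgeR FDR 0.0117) and Sfrp4 (−2.31 ± 0.57, edgeR FDR 0.0146), 2 of 9 members where 4.81% of all genes were called. With Wnt2 (−1.60 ± 0.49), 3 members passed without the level minimum, against 5.62%, but Wnt2 missed the tests in 8 of the 10 fits that left out 1 culture set (−1.85 to −1.19 over the 10). The calls of Sfrp1 and Sfrp4 were lost without replicate 2 of the EGF/U46619 batch (−0.77 and −2.05) and within that batch alone (−0.60 and −1.40). Against U46619 alone, EGF+U46619 had 0 calls by edgeR and 0 by DESeq2, 0 members with an unadjusted p under 0.05 in both, and 0% of all genes called. The departure from additivity at 48 h gave 0 calls by edgeR, 0 by DESeq2 and 0 members at an unadjusted p under 0.05, with 0% of all genes called.

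Without U46619, no member was called at 48 h. EGF gave 0 calls by edgeR, 0 by DESeq2 and 0 members with an unadjusted p under 0.05 in both, with 0% of all genes called. AngII gave 0 calls by either tool and 1 member at an unadjusted p under 0.05, Wnt2 (1.13 ± 0.44), with 0% of all genes called. By both unadjusted p-values, 219 of all 14528 genes were under 0.05 there. EGF+AngII gave 0 calls by edgeR, 0 by DESeq2 and 0 at an unadjusted p under 0.05, with 0% of all genes called. Wnt9a, the ligand called after EGF+AngII at 24 h, had −0.11 ± 0.27 after EGF+AngII at 48 h.

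Whether both times differed was tested on the paired log2 differences per culture set, with 70 exact two-sided permutation tests over the 10 members. An unadjusted p under 0.05 was found in 6 of them and an adjusted one in 0. Dkk3 had the 2 smallest: its mean difference after EGF+U46619 against control was −1.91 at 24 h and −0.55 at 48 h (exact permutation p = 0.013, adjusted 0.455), and against U46619 it was −0.24 and 0.18 (exact permutation p = 0.00866, adjusted 0.455). A difference between the times was not shown for any member. With 6 against 5 culture sets, the smallest p-value such a test can reach stays over 0.05 after adjustment unless several tests reach it. This limit does not hold for EGF against control, with 6 against 10 culture sets. Culture sets of 48 h that share a mouse number by the labels were counted separately. The result is no sign that the times agree.

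Other genes of the WNT system were followed in lists, whose counts at 24 h stand beside 27.8% of all genes called after U46619 and 33.4% after EGF+U46619, so the lists are described and not set apart from other genes. At 24 h, U46619 lowered 6 of 15 tested receptors and co-receptors and raised none, and EGF+U46619 lowered 8 of 15. After EGF+U46619, the Frizzled receptor genes Fzd8 (−1.47 ± 0.24), Fzd1 (−1.29 ± 0.22), Fzd4 (−0.94 ± 0.20) and Fzd5 (−0.82 ± 0.24) were among them, with Fzd8 going from 82.2 ± 24.6 to 31.7 ± 16.7 FPM (SD, n = 6). The median log2-fold change of the 15 was −0.45. Of the R-spondins, secreted proteins that enhance WNT signalling, and their receptors, 2 of 7 fell and 1 rose in both incubations. Rspo2 went from 45.9 ± 27.4 to 6.87 ± 5.37 FPM after EGF+U46619 (−2.93 ± 0.42) and Rspo3 from 16.8 ± 17.3 to 3.97 ± 5.05 FPM (−2.66 ± 0.36), while Znrf3, a ubiquitin ligase that removes Frizzled receptors, rose by 0.59 ± 0.16.

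Of 8 other ligands tested, 1 fell in either incubation, Wnt5b (−1.14 ± 0.37 after EGF+U46619). Of 3 other secreted antagonists, 0 passed both tests with the level minimum, and Frzb, a further Frizzled-related protein, had −0.03 ± 0.32. Wls, which carries WNT proteins to the cell surface, had −0.12 ± 0.13 and was the only secretion gene tested. Among 15 intracellular pathway genes, 1 rose and 4 fell after U46619, and 2 rose and 3 fell after EGF+U46619, with the transcription factor genes Tcf7l2 (−0.97 ± 0.15) and Tcf7l1 (−0.93 ± 0.23) among the latter. Among 11 feedback and target genes, 4 rose and 1 fell after EGF+U46619. Znrf3, counted above among the R-spondins and their receptors, is also 1 of these 4. The one that fell was Nkd1, an inhibitor of Dishevelled, from 67.2 ± 35.8 to 11.2 ± 7.50 FPM (−2.54 ± 0.35), and its relative Nkd2 rose by 0.88 ± 0.18, as did Ccn4 by 1.55 ± 0.41.

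At 48 h, U46619 lowered 2 of 15 receptors, Fzd5 (−0.85 ± 0.18) and Fzd8 (−0.69 ± 0.16), and 0 genes of the other lists passed. EGF+U46619 lowered the same 2 receptors (−1.23 ± 0.19 and −0.87 ± 0.16), Rspo2 (−1.96 ± 0.59), Rspo3 (−2.07 ± 0.60), Tcf7l2 (−0.61 ± 0.16) and Nkd1 (−1.96 ± 0.62). These counts are read against the 4.03% and 6.85% of all genes called.

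Markers of other cell types moved with the incubations, and their part in the results was not tested. Of 8 adventitial fibroblast markers, all measured and none at 0, U46619 lowered 6 at 24 h and EGF+U46619 lowered 7, against 14.2% and 16.3% of all genes called lower. Their summed level had a median of 887 FPM in controls (613 to 3505), 458 FPM after U46619 (237 to 2234) and 393 FPM after EGF+U46619 (233 to 1276). Of 10 smooth muscle markers, 8 were measured, with Tagln and Cnn1 at 0, and their sum had a median of 2668 FPM in controls (1313 to 5953), 12241 FPM after U46619 (4466 to 15425) and 9777 FPM after EGF+U46619 (1734 to 13063). Most of this sum was Acta2, which rose to 10247 ± 4756 FPM after U46619. After U46619, 2 of these 8 rose (Acta2 and Lmod1), 4 of 8 log2-fold changes were below 0 and the median was −0.03. After EGF+U46619, Acta2 rose, Mylk (−1.10 ± 0.42) and Synpo2 (−1.03 ± 0.33) fell, and the median was −0.02. At 48 h, 1 of the 8 fibroblast markers, Pi16, was called lower after U46619 and after EGF+U46619, while the fibroblast sum was lower in all 5 sets of the EGF/U46619 batch. Its range there was 726 to 3840 FPM in controls, 481 to 2694 FPM after U46619 and 541 to 2439 FPM after EGF+U46619.

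Endothelial markers ranged widely between cultures, and their part in the results was not tested. Of 8 listed, 7 were measured, Cdh5 being at 0, and 1 of 7, Cldn5, was called lower after U46619 at 24 h. Their sum in the 24 h controls ran from 4.97 FPM in mouse 1 to 1693 FPM in mouse 6, the mouse with the highest Sfrp2 level, although mouse 1 had 85.9 FPM of Sfrp2 and mouse 4 had 14.5 FPM of Sfrp2 at an endothelial sum of 730 FPM. In the 48 h controls the sum ran from 16.9 FPM (replicate 6 of the EGF/AngII batch, 1.69 FPM of Sfrp2) to 1714 FPM (replicate 1 of that batch, 933 FPM of Sfrp2).

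Adipocyte and Schwann cell markers moved as well, and their part in the results was not tested. The summed level of 4 adipocyte markers was 2140 FPM in the 24 h control of mouse 6 and 8.66 to 91.5 FPM in the other 5 controls. In mouse 6 it was 1323 FPM after U46619 and 181.6 FPM after EGF+U46619. Adipoq and Plin1 were called lower after U46619 (−1.34 ± 0.44 and −1.42 ± 0.52) and after EGF+U46619 (−2.77 ± 0.51 and −2.99 ± 0.59), and Fabp4 after EGF+U46619 (−1.07 ± 0.37). At 48 h none of them was called. Of the Schwann and neural markers described here, Ncam1 was at 0 and S100b was tested, and S100b was called lower at 24 h after U46619 (−2.66 ± 0.50), EGF+U46619 (−2.80 ± 0.51) and all agents together (−2.06 ± 0.51). At 48 h it was called lower too, after U46619 (−1.48 ± 0.30) and EGF+U46619 (−1.53 ± 0.30). The sum of the mesothelial and epithelial markers was 874 FPM in the 24 h control of mouse 3. It was 265 FPM in mouse 5 and 0.419 to 7.78 FPM in the rest. In the 48 h controls it ran from 4.35 to 424 FPM, the latter in replicate 6 of the EGF/AngII batch. At 24 h, Krt19 was called higher after U46619 and EGF+U46619, and Upk3b lower after EGF+U46619. Of the immune markers, Csf1r rose and Cd14 fell in both incubations. The part of these lists was not tested.

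**Figure D4:**
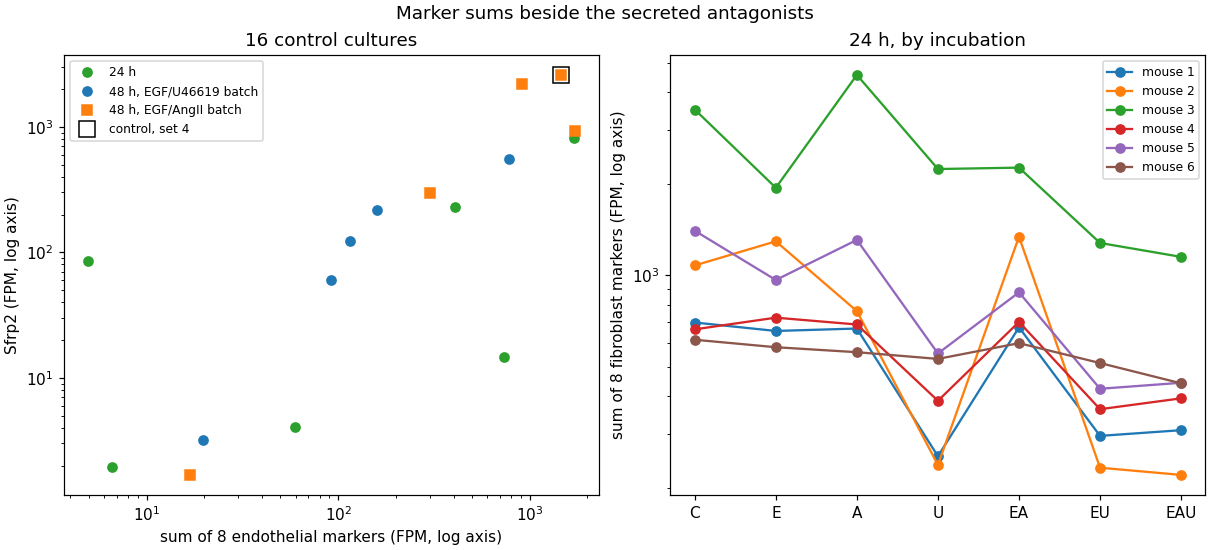
Left, Sfrp2 level against the summed level of the endothelial markers in the 16 control cultures, both in FPM on log axes, with the library labelled control of replicate 4 in the EGF/AngII batch boxed. Right, summed level of 8 adventitial fibroblast markers in FPM at 24 h by incubation, 1 line per mouse, with medians of 887 FPM in controls and 393 FPM after EGF+U46619.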

How the data were processed

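Gene-level read counts of 82 libraries (42 at 24 h, 40 at 48 h) were deposited by the authors as 3 tables of raw counts, 1 per experiment, with 16.5 to 33.9 M counted reads per library. By the submitters' processing notes and the study's methods, reads were aligned to mm10 with HISAT2 2.1.0 and counted with featureCounts, reads aligning to several places included, so genes with near-identical copies can share reads. No column was left without a sample (0). Groups came from the labels. The 10 members, and the pathway and marker lists, were chosen with earlier results of these data known.

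FPM was computed as counts over the TMM-scaled library size in M reads, per time point. Genes passing filterByExpr at both times were tested (14528, from 14653 at 24 h and 15796 at 48 h) in 1 fit per time over all groups with mouse and incubation as terms, using edgeR 4.0.16 (quasi-likelihood) and DESeq2 1.42.0 in R 4.3.3. Called means a Benjamini-Hochberg FDR under 0.05 in both plus 5 FPM or more as the mean of 1 compared group. Over 17 comparisons, p-values were adjusted over the genes passing filterByExpr at that time, of which only those passing at both times could be called. SEs were derived from the edgeR F statistic, and paired log2 differences used FPM + 0.5. DESeq2 gives no adjusted p (NA) for Wnt2 and Sfrp4 after EGF and EGF+AngII at 24 h. The scripts were tested on simulated data.

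The mouse numbers pair the samples by the labels. At 24 h all 126 same-mouse pairs correlated over 0.1 in their deviations from the group means (median 0.779). At 48 h this held for 138 of 236 pairs by mouse and for 57 of 60 by culture set, so culture set as the block was an alternative. Named pathway genes were up to 4 per list, those called after EGF+U46619 at 24 h with the lowest edgeR FDR, then those of highest mean level. Alternatives were other tools, filters, size factors and blocks, each batch alone, and leaving out each replicate. Leaving out the libraries labelled control of replicates 4 and 2 in the EGF/AngII batch, each and both, was chosen after seeing the data. Plots and tables used pandas 2.3.3, scipy 1.17.1 and matplotlib 3.10.9.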

Additional observations from a re-analysis of the deposited data

Results flagged for a closer look

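Within each group of 5, 6 or 10 cultures, the highest and lowest level of each member was compared with its nearest neighbour by Dixon's ratio at the 95% level. Of 130 groups tested, 24 held a culture that stood apart, and 13 of the 24 were cultures of mouse 6 at 24 h. Chance gives about 1 in 20 for a single group of normally distributed levels. Levels of Sfrp2 and Wif1 were skewed, with 24 h control medians of 50.2 and 0 FPM and maxima of 812 and 0.515 FPM. The 7 incubations at 24 h also hold the same 6 mice, and those of 48 h share culture sets. The groups are therefore not independent, 1 mouse can stand apart up to 7 times for a gene, and the total is not read against that share. In that mouse, Sfrp2 stood above the other 5 mice in all 7 incubations, at 812 FPM in the control, 539 FPM after EGF, 607 FPM after AngII, 369 FPM after U46619, 577 FPM after EGF+AngII, 732 FPM after EGF+U46619 and 124 FPM after EGF+AngII+U46619. Wif1, near the detection limit elsewhere, stood apart in the same mouse in 6 incubations, at 0.515 FPM in the control, 0.442 FPM after EGF, 1.27 FPM after AngII, 0.652 FPM after U46619, 3.60 FPM after EGF+AngII and 0.150 FPM after EGF+AngII+U46619.

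At 48 h, replicate 6 of the EGF/AngII batch stood apart for Wnt5a in all of its incubations, at 100.1 FPM in the control, 103 FPM after EGF, 77.0 FPM after AngII and 133 FPM after EGF+AngII, and for Axin2 at 3.49 FPM after EGF and 3.37 FPM after EGF+AngII. Replicate 2 of the EGF/U46619 batch stood apart in the control for Wnt2 (5.55 FPM) and Sfrp4 (201 FPM). Sfrp2 stood apart at 2742 FPM in the EGF culture of replicate 2 in the EGF/AngII batch and at 604 FPM in the EGF+U46619 culture of replicate 1 in the EGF/U46619 batch. Dkk3 stood apart at 465.5 FPM in the EGF+AngII culture of replicate 4 in the EGF/AngII batch. In replicate 6 of that batch, the mesothelial and epithelial marker sum was 419 to 676 FPM, and its part was not tested.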

How the results depend on the processing

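Over 17 counts of called members, 308 of 336 alternatives stayed within 1.5 times of the reported count and 28 did not. Many of these counts were 0 where almost no gene was called, so they could hardly move. The share is therefore not a measure of how stable the other counts are. Fold changes of tested members were followed only where edgeR or DESeq2 gave an FDR under 0.05, 34 in all. Over these, 506 of 604 alternatives kept direction and side of the threshold, 82 lost and 16 gained significance and 0 turned. Outside them direction could turn, as for Sfrp2 at 48 h after EGF, AngII and EGF+AngII without the doubtful control library. With no replicate block, the count fell to 0 for U46619, EGF+AngII and EGF+U46619 against EGF at 24 h and for U46619, EGF+U46619 and EGF+U46619 against EGF at 48 h, and in the 24 h combinations with U46619 it left Sfrp1 and Dkk3, 2 each. Culture set as the replicate block at 48 h changed no count. Fitting only the groups compared gave 0 for EGF+AngII at 24 h and 0 for U46619, EGF+U46619 and EGF+U46619 against EGF at 48 h. Without the FPM minimum the counts at 24 h were 5 for U46619, 5 for all agents together and 6 for EGF+U46619. EGF+U46619 against EGF gave 3 at 24 h. At 48 h the counts were 2 for U46619, 3 for EGF+U46619 and 3 for EGF+U46619 against EGF. DESeq2 alone called 1 after EGF and 4 after EGF+U46619 at 24 h, and 2 after U46619 and 3 after EGF+U46619 at 48 h. The EGF/U46619 batch alone gave 2 for U46619 and 0 for EGF+U46619 against EGF, and batch as a term gave 0 for the latter. Leaving out 1 replicate gave 0 to 1 for EGF, 0 to 1 for EGF+AngII, 3 to 4 for EGF+U46619, 3 to 4 for the triple combination, 1 to 2 for EGF+U46619 against EGF and 3 for U46619 at 24 h, and 0 to 2 for EGF+U46619 against EGF, 2 for EGF+U46619 and 1 for U46619 at 48 h, with 0 in every other comparison. The EGF call was gained without mouse 6. Without the libraries labelled control of replicate 4 or 2 in the EGF/AngII batch, or both, alternatives chosen after seeing the data, no count moved. The causes were not tested. Sfrp4 at 24 h and Axin2, Wnt2, Dkk2 and Wif1 at both times lie near or under 5 FPM, where counting error limits precision. Sfrp4 at 48 h was higher, with a median of 19.0 FPM in controls and 6.04 FPM after U46619. The p-values measure the spread between cultures as labelled.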
